A study of Elaeis guineensis with 18 samples.

Results

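Leaves of oil palm seedlings under drought were compared directly with leaves of seedlings under heat. The comparison set against each other 6 of the 18 libraries of the series, 3 biological replicates of drought and 3 of heat, joined gene by gene on the gene identifier of the count tables. The fit behind the p-values held all 18 libraries, including control, salinity (0.2 M NaCl, 28 °C), cold (10 °C) and waterlogging (28 °C). These other libraries thus helped to set the filter, the scaling and the spread. The drought seedlings were kept at 28 °C and received 0 mL of water, and the heat seedlings were kept at 40 °C and received 200 mL a day. In the comparison of levels, 3 libraries of control seedlings, kept at 28 °C with 200 mL a day, served as a reference. All were wildtype Elaeis guineensis of the Deli Dura type, 6 months old at the start, and were treated for 2 weeks after 1 month of acclimation. Each replicate was taken from leaves of 3 seedlings. Heat and drought thus differed in temperature and in water supply at the same time, and the part of each cannot be told apart here.

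Heat unfolds proteins, and plant cells answer it with heat shock factors that switch on chaperones, the proteins that hold, refold or disaggregate unfolded clients. Small heat shock proteins are the plant chaperones best known for being nearly silent at growth temperature and abundant after heating. Water deficit acts largely through abscisic acid, whose receptors (the PYR/PYL proteins) inhibit protein phosphatases 2C and so free kinases that close stomata and switch on genes for compatible solutes, waxes and protective proteins. Phenolic compounds made from phenylalanine, flavonoids among them, and jasmonate-type oxylipins made from fatty acids are further products of stressed leaves.

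The total count per library was 21897603, 16987168 and 18220298 under drought, against 21063899, 22126971 and 20556534 under heat, and 17434882 to 18103289 in control leaves. Replicates ranked the genes alike, with Spearman coefficients across genes of 0.981 to 0.987 within drought or heat and of 0.925 to 0.945 between a drought and a heat library, although genes are not independent replicates. No library repeated another, since replicates of a group differed by 16.3 to 31.3 times the spread that read sampling alone gives (chi-square per degree of freedom). The libraries were those of green leaf: the 21 listed genes of light harvesting, the antenna proteins of chloroplasts, took 4.08 to 6.37% of the counts under drought, against 4.88 to 5.82% under heat and 3.05 to 5.90% in control leaves. These were bulk leaves, so fewer cells of a type and less RNA per cell cannot be told apart in any result below.

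A gene is called a differentially expressed gene (DEG) when it differed at least 2-fold with an adjusted p under 0.05, from the quasi-likelihood test of edgeR with Benjamini-Hochberg adjustment over all 23830 genes tested. Levels are CPM, read counts scaled to library totals adjusted by the TMM method, and a fold change is given as log2FC, drought minus heat, with its standard error, so that a negative value means a lower level under drought. Between drought and heat, 3926 genes were DEGs, 16.5% of the genes tested, while 41.9% passed the adjusted p alone and 54.7% had no overlap between the 3 drought and the 3 heat libraries. Of these, 1976 (8.29%) were higher under drought and 1950 (8.18%) were higher under heat. In this fit the 2 directions were even in number but not in size. Over 4-fold differences were found for 527 DEGs higher under drought and 681 higher under heat, and over 16-fold differences for 58 higher under drought and 191 higher under heat. The DEGs higher under heat were also the scarcer transcripts, with a median level over the 6 libraries of 3.96 CPM, against 12.7 CPM for the DEGs higher under drought and 12.3 CPM for all genes tested. The split depended on the scaling and on the measure fitted. It was as even with RLE factors (1982 higher under drought and 1946 under heat) and with DESeq2 (2079 and 2089). With unadjusted library totals 39% of the DEGs were higher under drought, against 50.3%, and the median log2FC of all genes moved to −0.144 from −0.0115. Limma-trend on log2(FPKM + 0.1), FPKM being a level per length of transcript, gave 1638 higher under drought and 2512 under heat. On log2(FPKM + 1) it gave 1074 and 1300.

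**Figure D1:**
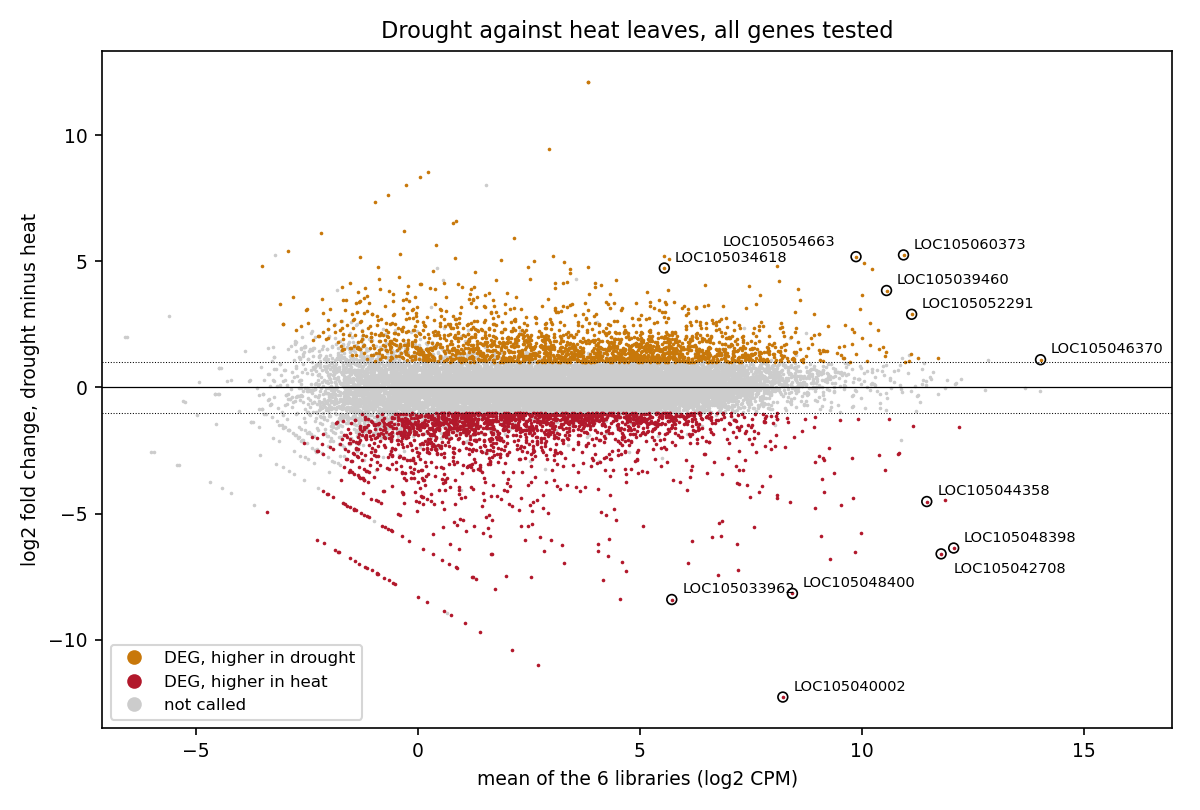
Each point is a gene: the x axis gives its mean level in the 6 drought and heat libraries (log2 CPM) and the y axis its log2FC, drought minus heat, with dotted lines at 2-fold. DEGs higher in drought are in orange, DEGs higher in heat in red and other genes in grey, and 6 genes tested with no read in the 6 libraries are left out. The most abundant genes with large differences lie on the heat side (LOC105048398 and LOC105042708), and LOC105060373 is at the top of the abundant genes on the drought side.

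Several abundant genes had their lowest level in control leaves, a higher level under drought and their highest level under heat. LOC105042708, listed under response to heat, had 71.7, 81.4 and 64 CPM under drought, against 7423, 7591 and 6017 CPM under heat and at most 1.03 CPM in control leaves (log2FC = −6.60 ± 0.42, adjusted p = 5.11e-08). Its neighbour LOC105042707, under the same term, had 370.5, 288 and 312 CPM under drought, against 7603, 7578 and 6273 CPM under heat and 10.9 to 14.7 CPM in control leaves (log2FC = −4.47 ± 0.22, adjusted p = 4.13e-09). For both genes the heat libraries lay more than an order of magnitude above every drought library, and the drought libraries lay above every control library.

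LOC105048398, which has no description in the sources used here, was the most abundant DEG higher in heat, with a mean of 112 FPKM (a level per length of transcript) under drought, against 10149.6 FPKM under heat. Its 3 libraries had 88.9, 99.9 and 121 CPM under drought, against 9168, 8810.3 and 7568 CPM under heat and at most 0.252 CPM in control leaves (log2FC = −6.37 ± 0.45, adjusted p = 1.12e-07). LOC105044358 had 228, 197 and 283 CPM under drought, against 4779, 6793 and 4706 CPM under heat and 39.2 to 58.8 CPM in control leaves (log2FC = −4.52 ± 0.23, adjusted p = 4.23e-09). Of the 10 DEGs with the highest FPKM over the 6 libraries, 7 were higher in heat and 3 in drought. Those 7 took 0.396, 0.461 and 0.381% of all counts in the drought libraries, against 4.15, 4.27 and 3.89% in the heat libraries and 0.162 to 0.198% in control leaves. The others among them were LOC105041260 (278 and 2648 CPM on average under drought and heat), LOC105046779 (2331 and 7002 CPM) and LOC105055554 (1182 and 3404 CPM).

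Several genes expressed under heat were at or near 0 CPM in control leaves and had at most 2.58 CPM under drought. LOC105040002 had 0.247, 0 and 0.0615 CPM under drought, against 707, 627 and 459 CPM under heat, and no read in any control library (log2FC = −12.27 ± 0.58, adjusted p = 1.32e-08). LOC105048400, a close neighbour of LOC105048398, had 2.22, 2.44 and 2.58 CPM under drought, against 823, 664 and 590.0 CPM under heat (log2FC = −8.16 ± 0.25, adjusted p = 4.79e-11), the smallest adjusted p of the comparison. Its 3 control libraries held 0, 0.0514 and 0 CPM, so that all its drought libraries lay above all control libraries. LOC105036547 had no read under drought or in control leaves, and 10.8, 5.61 and 9.64 CPM in the heat libraries. Taking 3 reads summed over the drought libraries as the floor, its heat level was at least 150-fold higher.

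Chaperone terms followed the same direction. Counts of list members below concern the members that the study's own enrichment on these samples listed, that is, genes already chosen as changed against control, so the counts are not independent evidence of a direction. For every list below, the shares over all genes tested were 8.29% higher in drought and 8.18% higher in heat. Each chaperone term below was listed for heat, some for other stresses as well. Of 13 genes of protein refolding, 10 were higher in heat, 0 were higher in drought and 3 were not called, with a median log2FC of −1.26, against −0.0115 over all genes tested. Of 11 genes of Hsp90 protein binding, which include co-chaperones of Hsp90 in other species, 7 were higher in heat and 0 in drought (median −1.20). Of 26 genes of unfolded protein binding 12 were higher in heat and 1 in drought (median −0.91), and of 19 genes of chaperone binding 6 were higher in heat and 0 in drought (median −0.82). In the last list, 1 gene was higher in drought without drought replicate 2, and likewise without heat replicate 3. Of 12 genes of response to heat, 6 were higher in heat and 1 in drought (median −0.754).

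Among these, LOC105049549 of protein refolding had 41.4, 35.7 and 41.3 CPM under drought, against 426, 496 and 437 CPM under heat and 15.8 to 18.8 CPM in control leaves (log2FC = −3.52 ± 0.11, adjusted p = 5.29e-11). LOC105043119 of the same list had 25.1, 22.5 and 26.3 CPM under drought, against 157, 153 and 147 CPM under heat (log2FC = −2.63 ± 0.11, adjusted p = 1.95e-09). In both genes the drought libraries lay above all control libraries and below all heat libraries. The largest difference in unfolded protein binding was that of LOC105054742, with 63.1, 70.9 and 48.2 CPM under drought, against 1176, 1019.8 and 1060.4 CPM under heat (log2FC = −4.16 ± 0.30, adjusted p = 1.39e-07). The exception was LOC105053974, an abundant member of both unfolded protein binding and response to heat. It had 2003, 1953 and 2300.3 CPM under drought, against 810.5, 843 and 992 CPM under heat, and 2055 to 2860.3 CPM in control leaves (log2FC = 1.24 ± 0.20, adjusted p = 0.000154), so that drought libraries were near control and heat libraries below it.

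Other genes higher in heat were uneven among the heat libraries. LOC105033962, described as a beta-1,3-endoglucanase (an enzyme class that cuts callose and fungal wall glucans), had 0.593, 0.257 and 0 CPM under drought, against 196, 43.8 and 76 CPM under heat (log2FC = −8.41 ± 1.05, adjusted p = 2.11e-05). LOC105036086, described as a cytochrome P450, had no read under drought, against 28, 4.26 and 6.96 CPM under heat, which by the same floor is at least 223-fold higher in heat (log2FC = −11.00 ± 1.96, adjusted p = 0.00104). LOC105050327, described as aldehyde dehydrogenase 2B7, had 3 reads in all under drought, against 12.8, 2.1 and 3.92 CPM under heat, a ratio of 108 with a 95% counting interval of 36.5 to 524. In these 3 genes replicate 1 of heat was the highest library. The drought and heat libraries did not overlap in any of them, as in 1892 of the 1950 DEGs higher in heat.

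LOC105048567, described as luminal-binding protein 5-like, a chaperone of the endoplasmic reticulum, had 2 reads in all under drought, against 3.16, 8.28 and 12.2 CPM under heat (log2FC = −7.48 ± 0.89, adjusted p = 2.84e-05). LOC105032553, described as an oxidase of 1-aminocyclopropane-1-carboxylate, which makes ethylene, had 0.198, 0.0641 and 0 CPM under drought, against 8.99, 1.64 and 5.81 CPM under heat (log2FC = −5.77 ± 0.98, adjusted p = 0.000443). The study named these genes and the preceding 3 for their rise under heat on these samples. Single heat libraries stood above their group more often than single drought libraries did. In 78 of the 1950 DEGs higher in heat, replicate 1 of heat was at least 2-fold above both other heat libraries, in 104 replicate 3 was, and in 1 replicate 2 was. Among the 1976 DEGs higher in drought the same held in 12 to 25 genes per drought library. Without heat replicate 1, 1644 of the 1950 were still called, and without replicates 2 and 3 it was 1779 and 1596.

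The study's heat enrichment gave the channel list, and its drought enrichment the other transport lists. Their directions are thus not independent of the source. With that limit, channel activity was the transport term that leaned to heat. Of its 14 listed genes, 9 were higher in heat and 2 in drought, with a median log2FC of −1.33, although the count of 2 fell to 1 without drought replicate 2 or 3 or heat replicate 1 or 2. LOC105037218 had 78.3, 120.1 and 141 CPM under drought, against 1065, 913 and 662 CPM under heat (log2FC = −2.96 ± 0.32, adjusted p = 6.52e-06). Its control libraries, at 247 to 469 CPM, lay between. LOC105040867 had 23.1, 16.6 and 18.5 CPM under drought, against 259, 175 and 198 CPM under heat and 44.9 to 80.2 CPM in control leaves (log2FC = −3.44 ± 0.34, adjusted p = 2.4e-06). The most abundant member, LOC105042909, had 971, 1046 and 798 CPM under drought, close to the 750.5 to 944 CPM of control leaves, and 2449.7, 1918 and 2287 CPM under heat (log2FC = −1.24 ± 0.17, adjusted p = 3.72e-05).

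On the drought side, the lists of flavonoid and cinnamic acid synthesis had the largest median differences. The study listed the flavonoid genes for drought and salinity, and the cinnamic acid genes for drought. Their direction is thus not independent of that choice. All 7 listed genes of flavonoid biosynthesis, a term of 14 genes, were higher in drought, with a median log2FC of 3.89 and a range of 1.18 to 5.25. All 4 listed genes of cinnamic acid biosynthesis, the entry step from phenylalanine, were higher in drought as well (median 2.33), but 2 of the 4 calls were lost without drought replicate 1. LOC105060373 of the flavonoid list had 4761, 3964 and 2784 CPM under drought, against 38.1, 183 and 80.4 CPM under heat (log2FC = 5.25 ± 0.92, adjusted p = 0.000387). Its control libraries, at 298, 245 and 699 CPM, all lay above every heat library and below every drought library. LOC105050962 had 836, 808 and 477 CPM under drought, against 41.4, 61.4 and 40.4 CPM under heat and 44.9 to 118 CPM in control leaves (log2FC = 3.89 ± 0.87, adjusted p = 0.00238). LOC105034618 had 118, 70 and 83.4 CPM under drought, against 1.21, 7.86 and 1.11 CPM under heat (log2FC = 4.73 ± 1.01, adjusted p = 0.00169). In all 3 genes replicate 2 of heat was the highest heat library, and it still lay below each drought library by a wide margin. The call of LOC105035984 was lost without heat replicate 3 (adjusted p = 0.0533) and that of LOC105036364 without heat replicate 1 (adjusted p = 0.0598).

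The main cinnamic acid gene, LOC105054501, had 966, 847 and 759.8 CPM under drought, against 180.0, 184 and 231 CPM under heat and 205 to 364 CPM in control leaves (log2FC = 2.11 ± 0.58, adjusted p = 0.00887). The other 3 listed genes of that term were scarce, with drought means of at most 4.1 CPM. Genes without a flavonoid term reached similar sizes. LOC105054663 had 2378, 1620.5 and 1477 CPM under drought, against 25, 98 and 27.6 CPM under heat and 238 to 649.7 CPM in control leaves (log2FC = 5.18 ± 0.93, adjusted p = 0.000446). LOC105035842, annotated only with oxidoreductase activity, had 2629.6, 2172 and 1409 CPM under drought, against 34.1, 123 and 45.7 CPM under heat and 172 to 429 CPM in control leaves (log2FC = 4.94 ± 0.91, adjusted p = 0.000548). Heat libraries of both genes lay below all control libraries. Not every gene with a flavonoid name was higher in drought: LOC105060008, described as a flavonol synthase or flavanone 3-hydroxylase, had 0.642, 0.513 and 0.184 CPM under drought, against 11.3, 5.61 and 11.8 CPM under heat (log2FC = −4.38 ± 0.55, adjusted p = 2.2e-05).

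**Figure D2:**
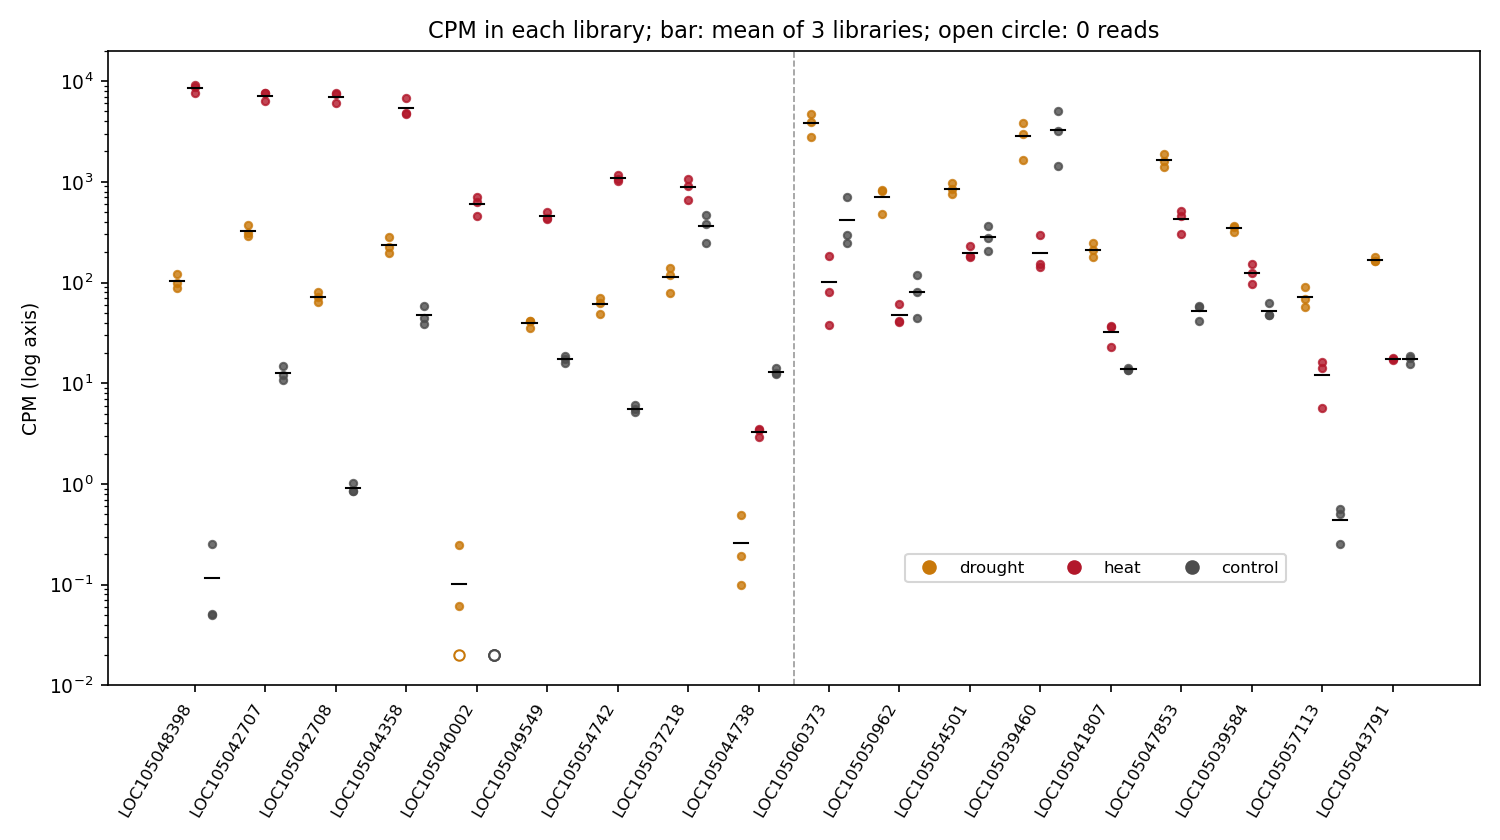
Level of 18 genes in each library of drought, heat and control (CPM, log axis), with a bar at the mean of 3 libraries and an open circle where a library had 0 reads. To the left of the dashed line are genes higher in heat, from LOC105048398 (mean of 103, 8515 and 0.118 CPM under drought, heat and control), and to the right genes higher in drought, from LOC105060373 (means of 3836, 101 and 414 CPM). The 18 were chosen among DEGs, and the drought and heat libraries do not overlap in any. The same held for 1932 of the 1976 DEGs higher in drought, 1892 of the 1950 higher in heat and 54.7% of all genes tested.

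Oxylipin synthesis, the path from fatty acids to jasmonates, was higher in drought in 6 of 9 listed genes and higher in heat in 0 (median log2FC 1.55). Here the control level told members apart. LOC105039460 had 2952, 3873 and 1644 CPM under drought, against 154, 295 and 142 CPM under heat, and 1427 to 5089.6 CPM in control leaves (log2FC = 3.84 ± 0.95, adjusted p = 0.00458), so that drought overlapped control and heat lay far below. LOC105050486 had the same order, with 519.6, 566 and 413 CPM under drought, 86.4, 125 and 42.4 CPM under heat and 375 to 705 CPM in control leaves (log2FC = 2.56 ± 0.58, adjusted p = 0.00251). LOC105041807, in contrast, had 179.9, 245 and 212 CPM under drought, against 22.9, 36.1 and 36.8 CPM under heat and 13.6 to 14.2 CPM in control leaves (log2FC = 2.73 ± 0.27, adjusted p = 2.52e-06). In that gene all drought and all heat libraries lay above control, with means of 212, 31.9 and 13.8 CPM under drought, under heat and in control leaves. All 9 oxylipin genes were also listed under fatty acid biosynthesis, where they supplied 6 of the genes higher in drought. Of the 27 listed genes of fatty acid biosynthesis, 10 were higher in drought and 3 in heat (median 0.473). The most abundant of these by CPM other than LOC105039460 was LOC105047853, with 1409, 1899 and 1601 CPM under drought, against 304, 459 and 511 CPM under heat and 41.6 to 58.9 CPM in control leaves (log2FC = 1.94 ± 0.29, adjusted p = 0.000103). At the other end, LOC105047747 had 0.346, 0.0641 and 0.553 CPM under drought, against 7.33, 4.82 and 7.61 CPM under heat and 13.6 to 29.3 CPM in control leaves (log2FC = −4.31 ± 0.48, adjusted p = 8.44e-06).

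In the fit of all 18 libraries, calls among genes for compatible solutes fell in the trehalose list and not in the inositol list. The solutes themselves were not measured. Trehalose synthesis, whose intermediate trehalose 6-phosphate is a sugar signal in plants, was higher in drought in 6 of 12 listed genes and in heat in 0 (median log2FC 1.06). Its most abundant member, LOC105039584, had 368, 317 and 357 CPM under drought, against 97.7, 123 and 153 CPM under heat and 47.6 to 62.2 CPM in control leaves (log2FC = 1.48 ± 0.28, adjusted p = 0.000791). LOC105041628 had 16.5, 9.04 and 11.7 CPM under drought, against 2.28, 2.62 and 2.35 CPM under heat (log2FC = 2.36 ± 0.53, adjusted p = 0.00234). None of the 4 listed genes of inositol synthesis was called by the edgeR fit of all 18 libraries or by DESeq2. LOC105036034 passed the adjusted p but not the 2-fold minimum, with 23.5, 19.8 and 21.1 CPM under drought, against 38.9, 36.3 and 31.8 CPM under heat (log2FC = −0.73 ± 0.12, adjusted p = 0.000246), and it was the only one of the 4 with an unadjusted p under 0.05. The inositol-3-phosphate synthase LOC105048608, which the enzyme name places at the first step from glucose 6-phosphate, had 859, 1105 and 1321 CPM under drought, against 1069, 885 and 679.9 CPM under heat, ranges that overlapped (log2FC = 0.32 ± 0.25, adjusted p = 0.331). Both groups were far above the 61.7 to 122 CPM of control leaves. A second synthase, LOC105041643, had 61.6, 151 and 200.0 CPM under drought, against 428, 414 and 322 CPM under heat, which did not overlap (log2FC = −1.50 ± 0.76, adjusted p = 0.129). The same gene was called with the drought and heat libraries fitted alone (adjusted p = 0.0161) and in the 3 limma-trend fits of FPKM (adjusted p = 0.00625 to 0.0091).

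Among signalling genes, protein dephosphorylation, which holds the protein phosphatases 2C, had 10 of 22 listed genes higher in drought and 0 in heat (median log2FC 0.781). Of the 4 phosphatases 2C that the study names, both copies of protein phosphatase 2C 32 were higher in drought. LOC105057113 had 56.7, 90.8 and 68.4 CPM under drought, against 5.73, 14 and 16.3 CPM under heat and at most 0.566 CPM in control leaves (log2FC = 2.58 ± 0.41, adjusted p = 0.000153). LOC105044577 had 280.1, 258 and 241 CPM under drought, against 61.8, 134 and 125 CPM under heat (log2FC = 1.28 ± 0.38, adjusted p = 0.0146), a call that was lost without heat replicate 1 (log2FC = 0.99, adjusted p = 0.0717). The abscisic acid receptor LOC105044738, PYL4-like, was lower in drought than in heat, with 0.0988, 0.192 and 0.492 CPM under drought, against 3.55, 3.46 and 2.91 CPM under heat and 12.2 to 14 CPM in control leaves (log2FC = −3.68 ± 0.42, adjusted p = 1.07e-05). All drought and heat libraries lay below all control libraries, the drought libraries the furthest.

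LOC105043791, a gene with a serine/threonine kinase term, was among the 5 genes higher in drought with the smallest adjusted p, with 163, 179 and 165 CPM under drought, against 17.5, 17.2 and 17.6 CPM under heat (log2FC = 3.27 ± 0.19, adjusted p = 2.19e-08). Its control libraries, at 15.7 to 18.6 CPM, bracketed the heat libraries. LOC105033262, a P-type calcium transporter, had the same form, with 86.9, 79.1 and 77.9 CPM under drought, against 19.5, 18.9 and 18.6 CPM under heat and 16.1 to 20.7 CPM in control leaves (log2FC = 2.1 ± 0.10, adjusted p = 4.05e-09). Of the 7 listed P-type calcium transporters, 2 were higher in drought. The other, LOC105042221, lost its call without drought replicate 1 or 2 or heat replicate 1 or 3 (adjusted p = 0.0671 to 0.103). LOC105044664, described as mitogen-activated protein kinase 5, had 442, 367 and 390.1 CPM under drought, against 77.6, 175 and 138 CPM under heat and 39.4 to 56.8 CPM in control leaves (log2FC = 1.62 ± 0.27, adjusted p = 0.00029).

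Of the 9 calcium sensors, stores and transporters that the study names as shared stress genes, 0 were higher in drought, 2 were higher in heat and 7 were not called. The 2 were LOC105039810, calsequestrin-1-like, with 1.09, 1.15 and 1.84 CPM under drought, against 7.72, 10.2 and 10.1 CPM under heat (log2FC = −2.78 ± 0.33, adjusted p = 1.45e-05), and LOC105049434, calmodulin-like protein 6, with 11.4, 11.5 and 10.3 CPM under drought, against 27.2, 28.8 and 22.7 CPM under heat (log2FC = −1.25 ± 0.21, adjusted p = 0.000266). Of 10 tested receptor-like kinases with leucine-rich repeats from the same source, 1 was higher in drought and 1 in heat. Over all genes tested, 8.29% were higher in drought and 8.18% in heat, so counts this small do not set either family apart. LOC105060930 had 265, 230.0 and 223 CPM under drought, against 63.4, 125 and 92.9 CPM under heat (log2FC = 1.35 ± 0.27, adjusted p = 0.000935). LOC105049067, an FLS2-type kinase by its description, had 5.19, 8.66 and 4.43 CPM under drought, against 39.2, 42.3 and 35.9 CPM under heat and 58.4 to 110.2 CPM in control leaves (log2FC = −2.69 ± 0.69, adjusted p = 0.00587).

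Ethylene signalling was mixed, with 7 of 25 listed genes higher in drought and 4 in heat (median log2FC 0.736). LOC105039877, an ethylene-responsive transcription factor, had 2.03, 2.44 and 0.861 CPM under drought, against 0.243, 0.0468 and 0.138 CPM under heat (log2FC = 3.59 ± 0.82, adjusted p = 0.00275), and LOC105051977 of the same list had 1.68, 3.4 and 2.21 CPM under drought, against 21.3, 15.1 and 23.9 CPM under heat (log2FC = −3.06 ± 0.65, adjusted p = 0.00158). Of 7 listed regulators of defence against fungi, 5 were higher in drought and 0 in heat. The other 2 had larger differences in the opposite direction that did not pass the test: LOC105056045 had 0.148, 0.321 and 0.184 CPM under drought, against 4.61, 1.26 and 5.21 CPM under heat (log2FC = −4.08 ± 1.65, adjusted p = 0.0589), and LOC105056043 had a log2FC of −3.41 ± 2.12 (adjusted p = 0.213). LOC105056045 was called higher in heat with DESeq2 (adjusted p = 0.00798), with the drought and heat libraries fitted alone (adjusted p = 0.00253) and with limma-trend on log2(FPKM + 0.1) (adjusted p = 0.0293). The count of 5 was 3 in that last fit and 1 with log2(FPKM + 1). Among those higher in drought, LOC105044840 had 124, 106 and 121 CPM under drought, against 14.5, 37.4 and 33.9 CPM under heat (log2FC = 2.03 ± 0.28, adjusted p = 5.47e-05). The genes that the study singled out for their rise under drought included LOC105058700, described as MOTHER of FT, a regulator of abscisic acid signalling in Arabidopsis seeds. It had 4.54, 4.87 and 3.14 CPM under drought, against 0.0971, 0.327 and 0.507 CPM under heat (log2FC = 3.72 ± 0.62, adjusted p = 0.000242). LOC105056444, a C1-like regulator of anthocyanins by its description, had 3.85, 3.91 and 2.64 CPM under drought, against 0, 0.234 and 0.0461 CPM under heat (log2FC = 5.11 ± 1.82, adjusted p = 0.0345), and its call was lost without drought replicate 1 or 2 or any single heat library (adjusted p = 0.0552 to 0.106).

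Sugar transport, sulphur and cell wall lists each held a few strong members. Of 18 genes of carbohydrate transport, 7 were higher in drought and 3 in heat. LOC105032465 had 462, 339 and 297 CPM under drought, against 60.7, 59.3 and 62.9 CPM under heat and 25.9 to 52.4 CPM in control leaves (log2FC = 2.59 ± 0.38, adjusted p = 7.88e-05), while LOC105038105 had 0.445, 0.192 and 0.615 CPM under drought, against 9.03, 6.6 and 6.09 CPM under heat (log2FC = −4.08 ± 0.53, adjusted p = 3.15e-05). Of 7 genes of cysteine biosynthesis, 2 were higher in drought. The larger difference was that of LOC105033394, with 88.3, 85 and 90.1 CPM under drought, against 8.74, 11.8 and 6.04 CPM under heat and 1.96 to 6.22 CPM in control leaves (log2FC = 3.31 ± 0.38, adjusted p = 1.1e-05). Of 17 genes of xyloglucan metabolism, which loosens and rebuilds the primary wall, 4 were higher in heat and 0 in drought (median −0.915). Without drought replicate 1 or 2 or heat replicate 2 the count of 4 was 2, and without heat replicate 3, 1 gene was higher in drought. Its most abundant called member, LOC105052932, had 31.2, 34.5 and 42.5 CPM under drought, against 96.6, 98.8 and 96.7 CPM under heat and 148 to 230.2 CPM in control leaves (log2FC = −1.43 ± 0.35, adjusted p = 0.00467). UDP-glycosyltransferases went both ways, with 5 of 30 higher in drought and 8 in heat. Those counts were 3 and 4 without drought replicate 2, 2 higher in drought without heat replicate 1, 3 higher in drought without drought replicate 3 and 5 higher in heat without heat replicate 3.

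**Figure D3:**
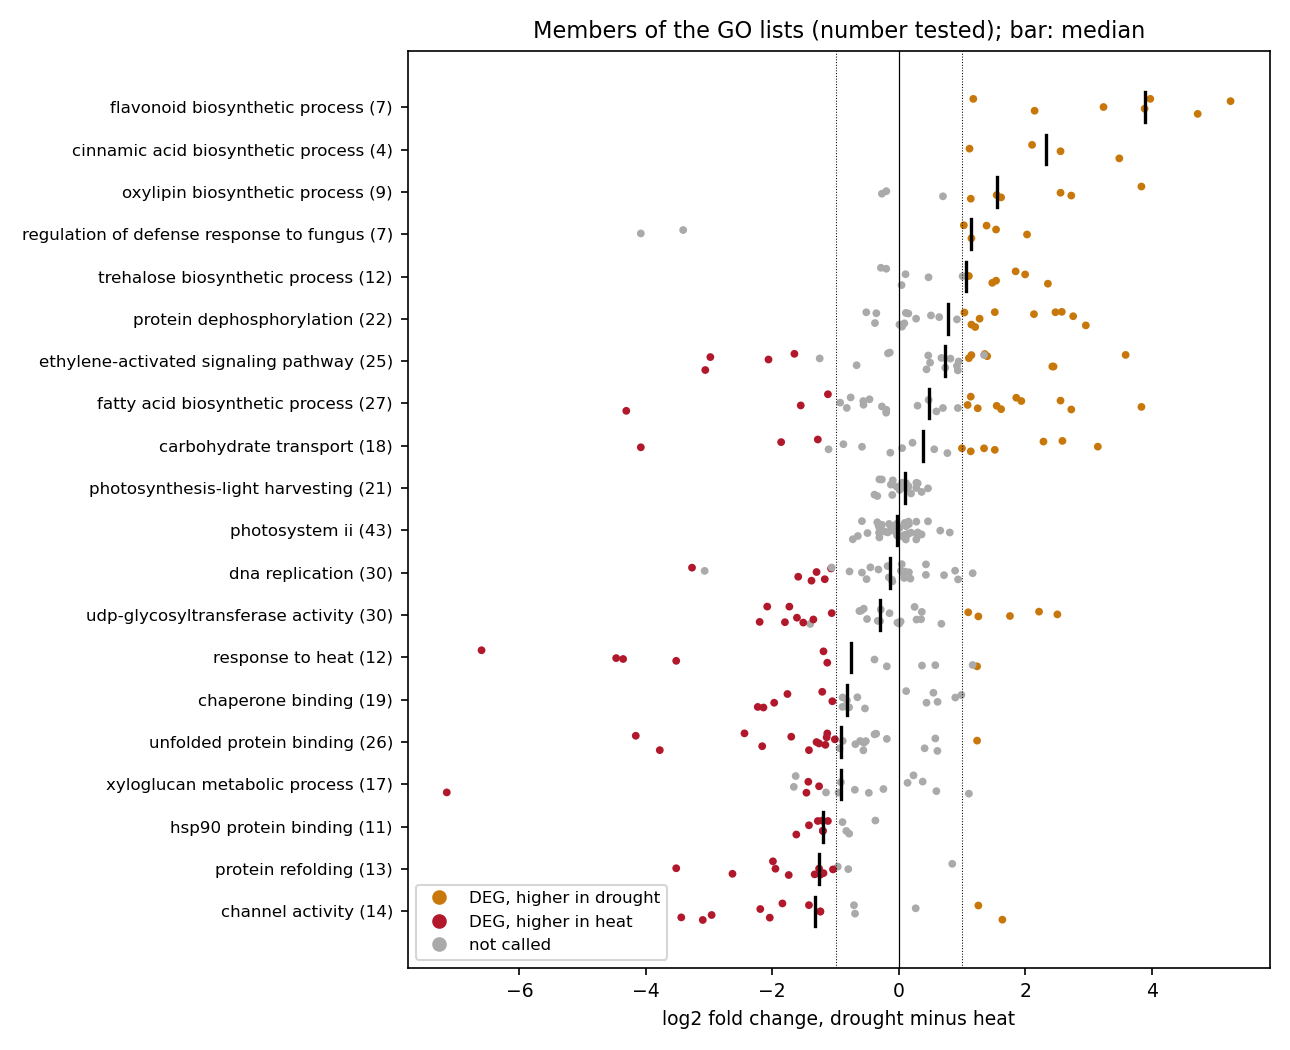
Log2FC, drought minus heat, of every tested member of 20 GO lists (x axis), coloured by call, with the number tested in brackets and a bar at the list's median. Flavonoid biosynthesis (median 3.89) lies at the drought end, protein refolding (−1.26) and channel activity (−1.33) at the heat end, and the 21 light-harvesting genes cluster between −0.384 and 0.463.

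The listed genes of the photosystems and their antennae were not called. Their lists came from the study's enrichments for cold, salinity or waterlogging. The terms hold 71 genes for photosystem II, 37 for photosystem I and 27 for the oxygen-evolving complex, so only the listed part of each was examined. None of 21 light-harvesting genes, 43 genes of photosystem II, 28 of photosystem I and 12 of the oxygen-evolving complex was a DEG by the edgeR fit of all 18 libraries or by DESeq2. The median log2FC of these lists lay between −0.026 and 0.095. These lists overlap and held 53 different genes, of which 9 had an unadjusted p and 6 an adjusted p under 0.05 in edgeR, with log2FC from −0.727 to 0.808. Without drought replicate 2, 1 gene of photosystem II was higher in drought, and without drought replicate 3, 1 was higher in heat. LOC105050039 of photosystem I had 1145, 1318 and 1911 CPM under drought, against 1178, 1239 and 830.2 CPM under heat (log2FC = 0.43 ± 0.28, adjusted p = 0.241). Carbon fixation differed from these lists in that 3 of its 6 listed genes were called, 2 higher in drought and 1 in heat (median log2FC 0.682). LOC105056619 had 125, 118 and 118 CPM under drought, against 41.8, 48 and 36.5 CPM under heat (log2FC = 1.51 ± 0.19, adjusted p = 2.57e-05), and LOC105058702 had a log2FC of 1.58 ± 0.26 (adjusted p = 0.000216). LOC105047390 had 50.4, 35.7 and 35.5 CPM under drought, against 89.9, 110.1 and 75.7 CPM under heat (log2FC = −1.18 ± 0.25, adjusted p = 0.00147). LOC105041203, an uncalled carbon fixation gene and among the most abundant transcripts, had 14590.1, 14262 and 18654 CPM under drought, against 20276, 19184 and 13272 CPM under heat (log2FC = −0.15 ± 0.26, adjusted p = 0.671). The groups overlapped in LOC105050039 and LOC105041203, and a p that misses the threshold does not show equality. Of 30 genes of DNA replication, 6 were higher in heat and 0 in drought (median −0.132), against 8.18% and 8.29% of all genes tested. In that list 1 gene was higher in drought without drought replicate 1 or heat replicate 1 or 2.

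The control level places these differences. Among the 1976 DEGs higher in drought, the control mean lay between heat and drought in 917 (46.4%), below both in 732 (37%) and above both in 327 (16.5%). Among the 1950 DEGs higher in heat, it lay between drought and heat in 1070 (54.9%), below both in 600 (30.8%) and above both in 280 (14.4%). Genes with drought at least 2-fold above control and heat at least 2-fold below it numbered 86, and those with heat at least 2-fold above and drought at least 2-fold below numbered 146. These counts, and those of control between, take in ties: genes with no read in control leaves and none under the lower stress. The number of ties is not given here. LOC105036547, with no read under drought or in control leaves, is such a gene, and its drought level was equal to control. The first kind included LOC105060373 and LOC105054663, and LOC105053843, with 103, 98.6 and 73.5 CPM under drought, against 1.55, 3.46 and 2.4 CPM under heat and 5.76 to 18.5 CPM in control leaves (log2FC = 5.21 ± 0.88, adjusted p = 0.000275). The second kind included LOC105048815, with 1.68, 1.92 and 0.0615 CPM under drought, against 529, 38.4 and 85.3 CPM under heat and 6.12 to 19 CPM in control leaves (log2FC = −7.45 ± 1.53, adjusted p = 0.00125). LOC105033158 of the second kind had 0.296, 0.0641 and 0 CPM under drought, against 94.6, 17.5 and 28.6 CPM under heat and 0.154 to 3.27 CPM in control leaves (log2FC = −8.40 ± 1.15, adjusted p = 4.76e-05).

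**Figure D4:**
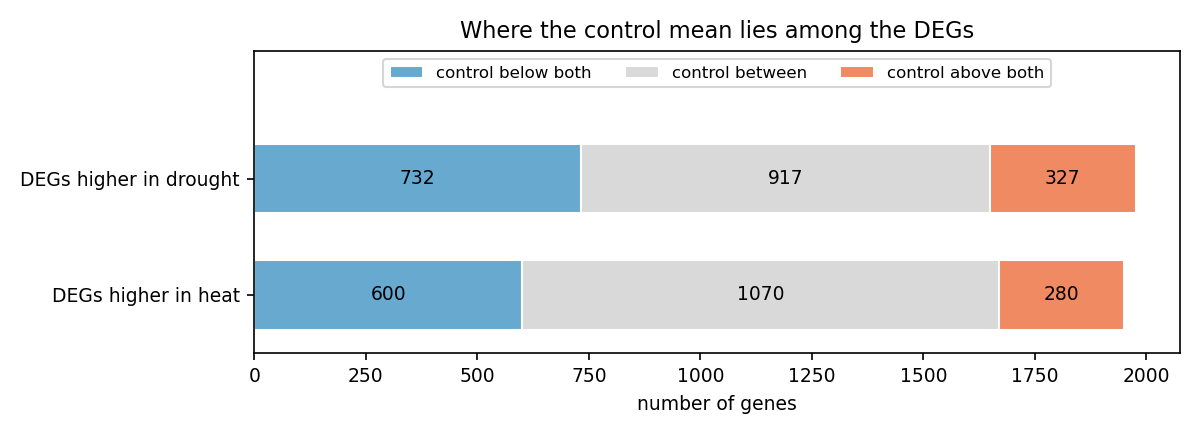
Number of DEGs higher in drought (upper bar) and higher in heat (lower bar), divided by whether the control mean lay below both stresses, between them or above both. Control lay between the stresses, or tied with a stress, in 917 and 1070 genes, the largest part of each bar.

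In other genes the control level was close to that of drought or of heat. LOC105060839 had 21, 29.1 and 26.3 CPM under drought, against 2.62, 2.62 and 3.87 CPM under heat, with control at 32.5 to 37.7 CPM (log2FC = 3.06 ± 0.19, adjusted p = 3.83e-08). LOC105045971 had 0.0988, 0.385 and 0.0615 CPM under drought, against 40.3, 19 and 48.3 CPM under heat, with control at 11.9 to 71.2 CPM (log2FC = −7.64 ± 1.12, adjusted p = 8.83e-05). The most abundant DEG of all by FPKM, LOC105046370, had 21586, 20999.9 and 25873 CPM under drought, against 11222, 12339 and 8402 CPM under heat, with control at 11247 to 13153 CPM (log2FC = 1.10 ± 0.25, adjusted p = 0.00291). Its call was lost without heat replicate 3 (log2FC = 0.95), with library totals (log2FC = 0.97), and in the 3 limma-trend fits of FPKM (log2FC = 0.98, adjusted p = 0.0833 to 0.358). In LOC105052291, next in FPKM on the drought side, control lay between the stresses and overlapped neither. That gene had 3128, 4639 and 4058 CPM under drought, against 605, 428 and 551 CPM under heat, with control at 935 to 1159 CPM (log2FC = 2.9 ± 0.22, adjusted p = 2.12e-07).

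The largest fitted fold changes on the drought side came from genes that were off in part of the drought libraries. LOC105047119 had 42.1, 42.8 and 0.0615 CPM under drought, no read under heat, and 0.151, 0.206 and 107 CPM in control leaves (adjusted p = 0.0251). LOC105047143 had 44.3, 40.9 and 0.123 CPM under drought, no read under heat, and 0, 0.72 and 81.7 CPM in control leaves (adjusted p = 0.033). LOC105047117 had 20.8, 25.5 and 0 CPM under drought, 0, 0 and 0.0461 CPM under heat, and 0, 0.0514 and 17.9 CPM in control leaves (adjusted p = 0.0223). These 3 genes were on in drought replicates 1 and 2 and in control replicate 3 and near 0 elsewhere among these libraries, so their difference between drought and heat was no larger than their spread within control. All 3 calls were lost when any single heat library was left out (adjusted p = 0.0607 to 0.0793), and that of LOC105047143 also without drought replicate 1 or 2. On the heat side, LOC105055790 had no read under drought and 0.194, 0.14 and 15.5 CPM under heat, so that its call (adjusted p = 0.0195) rested on heat replicate 3 and was lost without it (adjusted p = 0.276).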

How the data were processed

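RNA of leaves was sequenced as 150-nt paired reads and the strand setting of the counting was not stated. The authors mapped reads with TopHat2 to the oil palm genome, allowing 2 mismatches, and counted reads per gene with HTSeq. The deposited tables give raw counts for 30606 genes (856 of them added gene models), and deposited FPKM values, which the authors normalized for depth and gene length. Counts were tested, and FPKM served to compare levels between genes and for the limma-trend alternatives. Without a stated strand setting, overlapping and antisense genes cannot be told apart, and near-identical copies may share reads.

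Here, 23830 genes passed filterByExpr of edgeR 4.0.16 (minimum count 10, minimum total 15). All 18 libraries were fitted in 1 quasi-likelihood model with 1 coefficient per group and 12 residual degrees of freedom (glmQLFit and glmQLFTest, TMM factors, R 4.3.3), and drought was contrasted with heat. SE is the absolute log2FC over the square root of F. The script was tested on simulated data. P-values rest on the spread among the 3 libraries per group. Intervals and floors cover counting error only. Alternatives, given in the closing section, were RLE factors, library totals, no count filter, the 6 libraries alone, DESeq2 1.42.0, limma-trend 3.58.1 on log2(FPKM + 1) and log2(FPKM + 0.1), glmTreat, a replicate block and leaving out each library.

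Genes were named by rule: those the study names by number, the 12 DEGs per direction with the largest log2FC at 5 CPM or more and no overlap, the 5 with the smallest adjusted p, the 10 with the highest FPKM, the 5 per direction on opposite sides of control, and per list the 4 most abundant and the 2 with the largest log2FC. Ties with control at no read counted as opposite sides of control. Members and lists were chosen with earlier results of these data known. GO lists hold the genes that the study's enrichment listed under each term, which for most terms are part of the term. Of the genes tested, 21324 had an entry in the RefSeq table of assembly EG11, used only for gene order. Product descriptions, promoters, proteins and cell type markers were not analysed here. Authors' fold changes and p-values were not used.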

Additional observations from a re-analysis of the deposited data

How the results depend on the processing

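The total of 3926 DEGs (1976 higher in drought, 1950 higher in heat) was 2374 (1074 and 1300) with limma-trend on log2(FPKM + 1), 2347 (1066 and 1281) without its filter on low values, 1133 (558 and 575) with glmTreat against the 2-fold minimum itself, and 9982 (4892 and 5090) by adjusted p alone. Leaving out single libraries gave totals of 3384 to 3883, with 1628 to 1911 higher in drought and 1688 to 1991 higher in heat. The other alternatives stayed within 1.5 times, with 4168 by DESeq2 and 4021 with library totals. Same-numbered drought and heat libraries did not deviate together (correlations of −0.176 to 0.000733), so the numbers do not pair the samples, and the replicate block gave 3896 DEGs. The block lost the call of LOC105055790 (adjusted p = 0.0552) among the genes named. With glmTreat many more named genes lost their call. Among them were LOC105053974 (adjusted p = 0.352), LOC105042909 (adjusted p = 0.262), LOC105039584 (adjusted p = 0.189) and LOC105054501 (adjusted p = 0.147). No alternative called a DEG named above in the opposite direction. The counts by control position stayed within 1.5 times with medians or without any control library. Promoter motifs, keyword lists and cell type markers were not run. Whether differences could be detected at low counts was not tested.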

Other observations

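Some DEGs lay next to DEGs of the same direction. In the gene order of assembly EG11, the next protein-coding gene after a DEG higher in heat was also higher in heat in 166 of 1248 pairs in which both were tested (13.3%, against 8.13% of all next genes), and higher in drought in 64 (5.13%). After a DEG higher in drought it was also higher in drought in 114 of 1138 pairs (10.0%, against 7.48%), and higher in heat in 74 (6.5%). Runs of at least 3 adjacent DEGs in the same direction numbered 15 for drought and 26 for heat. Tandem copies that share reads could count more than once here, and their part was not tested.

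Among the runs higher in heat, chosen here after their values were seen, were several abundant heat genes. LOC105041257, LOC105041256 and LOC105041255 lay side by side. LOC105041256 had 16.9, 22.9 and 20 CPM under drought, against 1729, 1692 and 2014 CPM under heat and at most 0.203 CPM in control leaves (log2FC = −6.50 ± 0.48, adjusted p = 1.55e-07). Another run joined LOC105042708 and LOC105042707 with LOC105042706, a scarce member with 0.0988, 0.0641 and 0.369 CPM under drought, against 4.23, 3.23 and 3.69 CPM under heat. A further run joined the beta-1,3-endoglucanase gene LOC105033962 with LOC105045343, which had 0.79, 0.77 and 0.246 CPM under drought, against 77.3, 14.9 and 25.5 CPM under heat (log2FC = −5.99 ± 0.72, adjusted p = 1.48e-05), again highest in replicate 1.

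Some genes were on in part of a group and at 3 reads or fewer in another library of it, while reaching 5 CPM in at least 1 library. There were 21 such genes under drought (4 of them DEGs), 9 under heat (3 DEGs) and 18 in control leaves (5 DEGs). LOC105047118, which lies between the called LOC105047143 and LOC105047117 in the gene order of EG11, had 1457, 2749 and 2 reads under drought, against 1, 0 and 669 reads under heat. LOC105036755, which also lies between them, had 599, 591 and 1 reads under drought and 2, 2 and 830 reads in control leaves. LOC105047143 had 897, 638 and 2 reads under drought and 0, 14 and 1613 reads in control leaves. These 3 neighbours were thus high in drought replicates 1 and 2 and near 0 in drought replicate 3, and the last 2 were high only in replicate 3 among the control libraries. Each replicate pooled leaves of 3 seedlings, and whether the seedlings differed was not tested.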
